A study of Homo sapiens with 10 samples.

Results

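The long arm of chromosome 10 was followed gene by gene through 10 RNA-seq samples of a lymphoma cell line, because 4 of the samples carried more RNA from it than the other 6. Its members were the rows of the count table that lie on chromosome 10 with a start at or above position 40000000 (GRCh38, GENCODE release 29). Of 1598 such rows 135 were left out by name, which left 1463 members of the 58721 rows in the table. No count was found for 661 members in any sample, 420 passed the filter on low counts and were tested among 17045 genes, and 276 had a mean of at least 5 CPM (a gene's count scaled to the library size), the level used to describe differences along the arm. Of those 276 members 260 were protein-coding.

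The cells come from the line labelled U2392 and were edited at DDX3X, the gene of an RNA helicase that takes part in the start of translation. A plasmid, PX458, supplied Cas9, a guide RNA and green fluorescent protein, and a double-stranded template supplied either R475C or the wild-type sequence. Both templates also carried a silent change at the PAM and a silent SpeI site, so the wild-type samples had been edited too. GFP-positive cells were sorted, grown as single-cell clones and screened by SpeI digestion and sequencing, and poly(A)-selected RNA was sequenced from 6 wild-type and 4 R475C samples. Which replicates come from the same clone is not stated, and whether they do was not tested, so the p-values below measure nothing but how far these samples spread, part of which may be technical.

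The amount of RNA made from a gene tends to follow the number of copies of that gene, so the gain or loss of a stretch of chromosome can appear as a step in RNA level that begins and ends between neighbouring genes. Genes under feedback control, or limited by a signal rather than by their copies, can depart from such a step. The long arm of chromosome 10 carries genes of mitosis such as CDK1 and KIF11, of mitochondria such as TFAM and of lipid synthesis such as SCD. DNA was not measured here, so the copy number itself was not tested, and in bulk RNA a change in every cell and a larger change in some cells, or fewer cells of a type and less RNA per cell, cannot be told apart.

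Promoter sequence is shown for 4 members on which the account turns: the genes on either side of the step inside the arm, the member of highest level that stayed close to level, and the member with the largest difference that held in both genotypes. Each run is the RefSeq promoter sequence (GRCh38.p14) before both the RefSeq and the GENCODE start of the gene, written 5′ to 3′ on the gene's own strand, with capitals for the CCAAT box (CCAAT) and the GC box (GGGCGG) on either strand. CSTF2T, minus strand, is chr10:51699596-51699845, and ZWINT, minus strand, is chr10:56361276-56361523. SCD, plus strand, is chr10:100346983-100347123, and TSPAN14, plus strand, is chr10:80454060-80454165.
CSTF2T: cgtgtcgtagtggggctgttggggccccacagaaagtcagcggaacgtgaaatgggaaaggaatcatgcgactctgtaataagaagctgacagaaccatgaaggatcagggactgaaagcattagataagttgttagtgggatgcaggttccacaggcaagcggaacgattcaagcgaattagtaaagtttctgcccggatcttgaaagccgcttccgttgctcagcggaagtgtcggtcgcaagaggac
ZWINT: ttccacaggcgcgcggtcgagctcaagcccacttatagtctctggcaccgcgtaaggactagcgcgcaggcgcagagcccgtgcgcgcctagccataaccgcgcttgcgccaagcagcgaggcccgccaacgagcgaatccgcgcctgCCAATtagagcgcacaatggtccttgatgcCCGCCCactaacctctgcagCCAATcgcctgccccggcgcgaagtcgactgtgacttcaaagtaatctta
SCD: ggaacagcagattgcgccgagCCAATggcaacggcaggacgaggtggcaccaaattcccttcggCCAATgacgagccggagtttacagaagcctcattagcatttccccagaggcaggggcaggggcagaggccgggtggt
TSPAN14: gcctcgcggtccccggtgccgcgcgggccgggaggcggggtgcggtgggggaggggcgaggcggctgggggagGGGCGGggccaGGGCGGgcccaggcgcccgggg
The ZWINT run holds 2 CCAAT boxes and 1 GC box, the SCD run 2 CCAAT boxes, the TSPAN14 run 2 GC boxes and the CSTF2T run neither. No run holds a TATA box (TATAAA). In windows of 250 bases, CCAAT was found in 32.0% of 35114 promoters of the reference table and in 35.1% of the 225 promoters matched to members of at least 5 CPM, GGGCGG in 42.6% and 67.6%, and TATAAA in 10.7% and 3.11%. These are letter matches only. The reference table holds promoters whatever the level of their gene, while the members' are those of genes of at least 5 CPM, 1 promoter each. Shares over other genes of that level were not taken, so neither these values nor the CpG counts that follow describe a trait particular to the arm. The median number of CpG pairs was 11 over all promoters and 21 over the members'. By the classes defined below it was 21 over the 180 members with a promoter that followed the step and 21 over 30 that were mixed. It was 24 over 12 that escaped and 37 over 3 that exceeded, and these differences were not tested.

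Total counts ran from 8928539 (R475C replicate 4) to 53779005, with 3.98% to 5.62% of them from mitochondrial genes. The B-cell markers MS4A1, CD79A, CD79B and PAX5 had medians of 345.9 to 1591 CPM. The T-cell and myeloid markers CD3D, CD3E, CD14, LYZ and CSF1R stayed between 0 and 0.748 CPM. Among epithelial markers KRT8 and KRT18 lay between 0 and 0.209 CPM and EPCAM between 16.4 and 37.2 CPM, and among fibroblast markers COL1A1, LUM and DCN reached 3.71, 2.93 and 14.8 CPM. DCN was lower in the 4 samples described below (log2 difference -6.50), LUM (-2.67) and COL1A1 (-1.84) were lower too, EPCAM was higher (0.55), and their part in the results was not tested.

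The samples that carried more RNA from the arm were wild-type 1 and 4 together with R475C 1 and 3 (numbers are those of the replicates), called the 4 high samples below. They were set apart with these values in view, so their difference from the other 6 is a description with no test. A difference is the mean log2 CPM of the high samples minus that of the others within 1 genotype, and the mean of the wild-type and R475C differences is given where 1 value stands for both. Of the 420 tested members, 301 (71.7%) were higher in the high samples without overlap in both genotypes and 3 were lower without overlap. Over all 17045 genes tested the shares were 9.09% and 8.95%, and over genes of at least 5 CPM 10.8% were higher and 9.51% lower. At that level 252 of 276 members (91.3%) were higher without overlap and 1 was lower.

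The difference changed along the chromosome in steps. A step function fitted to the 397 genes of chromosome 10 with at least 5 CPM, in order of their starts, took 3 segments by the Bayesian information criterion (BIC, lowest is best; -727.28 against -719.18 for 2 segments, -720.03 for 4 and -403.27 for 1). The first break fell between HSD17B7P2 (chr10:38356380-38378505) and ZNF37BP (chr10:42513510-42552822), neither of which is a member. That gap spans the centromere, is 4.14 Mb long and holds 22 other rows, of which 2 were tested. The second break fell inside the arm between CSTF2T (chr10:51695487-51699591) and ZWINT (chr10:56357228-56361275), a gap of 4.66 Mb with 25 rows, none tested and none above a mean of 0.177 CPM. The nearest gene below the position that defines the members, HSD17B7P2, had a difference of -0.88 at a mean of 5.03 CPM, and the first member above it, BMS1, a factor of small ribosomal subunit assembly, had one of 0.61.

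**Figure D1:**
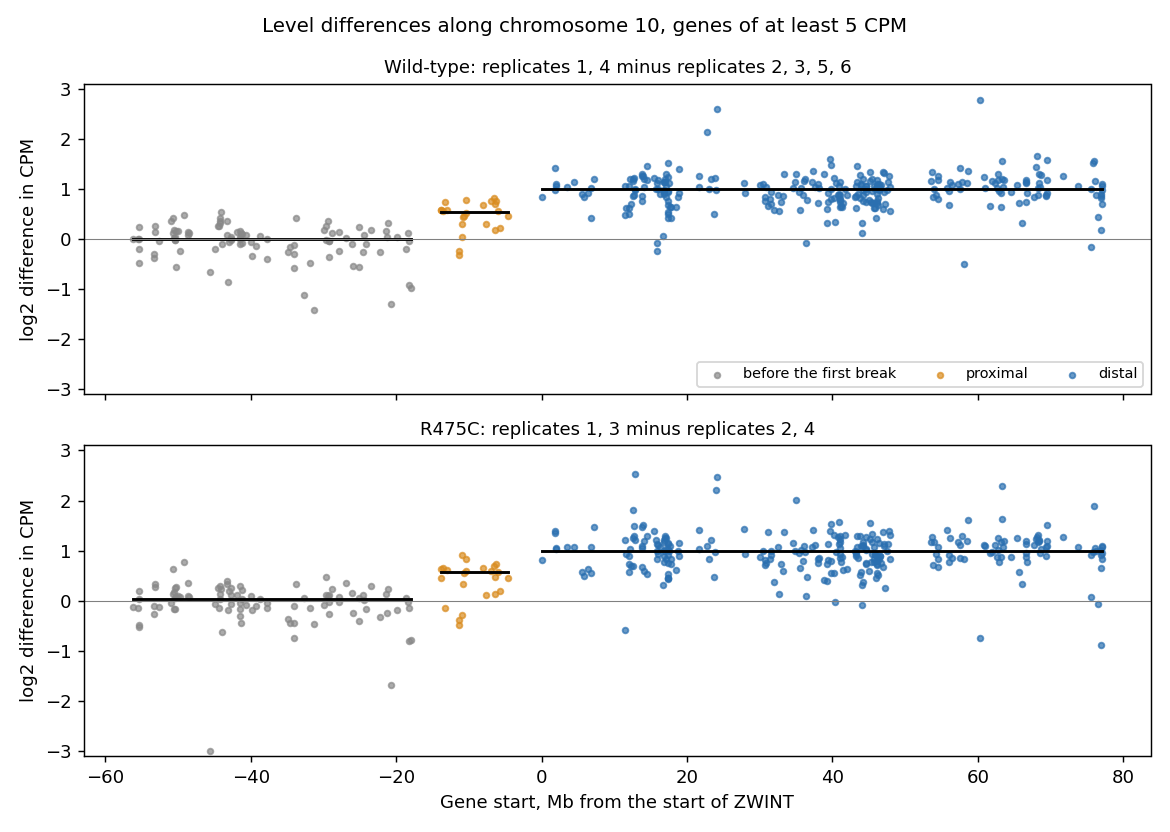
Each point is a gene of chromosome 10 with at least 5 CPM, plotted by the distance of its start from that of ZWINT (Mb) and by its log2 difference in CPM between the high samples and the others, in wild-type above and R475C below; black lines are medians, over members where the segment holds any. The lines stand near 0 before the first break, at 0.53 and 0.57 over the proximal members and at 0.996 and 0.993 over the distal members; CELF2 (-7.57 in R475C), which is no member, is drawn at the lower edge.

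The 2 genotypes share no sample and placed the step inside the arm at the same gap when 3 segments were fitted. In wild-type alone 3 segments had the lowest BIC and both breaks stayed in place. In R475C alone 2 segments had the lowest BIC (-459.96 against -457.65 for 3), with a single break between ALOX5 and MARCHF8 (start 45454585), and the fit with 3 segments again put its second break between CSTF2T and ZWINT. Taken 1 high sample at a time, BIC chose 3 segments in wild-type 1 only, with 4 in wild-type 4 and 2 in R475C 1 and in R475C 3. With 3 segments set for each, wild-type 1 and R475C 1 put the second break before ZWINT and wild-type 4 and R475C 3 put it before IPMK (start 58191517), the next gene. The first break was before ZNF37BP in wild-type 1 and 4 and before MARCHF8 in R475C 1 and 3. The second break moved to SIRT1 (start 67884669) when genes down to 1 CPM were used, and to IPMK without R475C replicate 4.

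Beyond the second break the 256 distal members of at least 5 CPM were close to doubled in the high samples. Their median log2 difference was 0.996 in wild-type, 0.993 in R475C and 0.978 for the mean of both, which is 1.97-fold. The distal median of each high sample relative to the mean of the other 6 was 1.03 and 0.92 in wild-type 1 and 4 and 0.992 and 1.005 in R475C 1 and 3, with an SD of 0.05 over the 4, and the other 6 samples lay between -0.04 and 0.05. All but 3 of the 256 members were above 0, and 238 (93.0%) were higher without overlap in both genotypes. Between the breaks the 20 proximal members differed less, by a median of 0.56 (1.47-fold, with 0.53 in wild-type and 0.57 in R475C). Of these 20, 14 (70.0%) were higher without overlap in both genotypes and 1 was lower without overlap. The proximal medians in the 4 high samples were 0.64, 0.45, 0.56 and 0.64, against -0.10 to 0.07 in the other 6. None of the 20 proximal members exceeded the distal median, and 21 of the 256 distal members lay under the proximal median. The break between them was fitted to these same differences, so this contrast is no separate evidence for it.

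**Figure D2:**
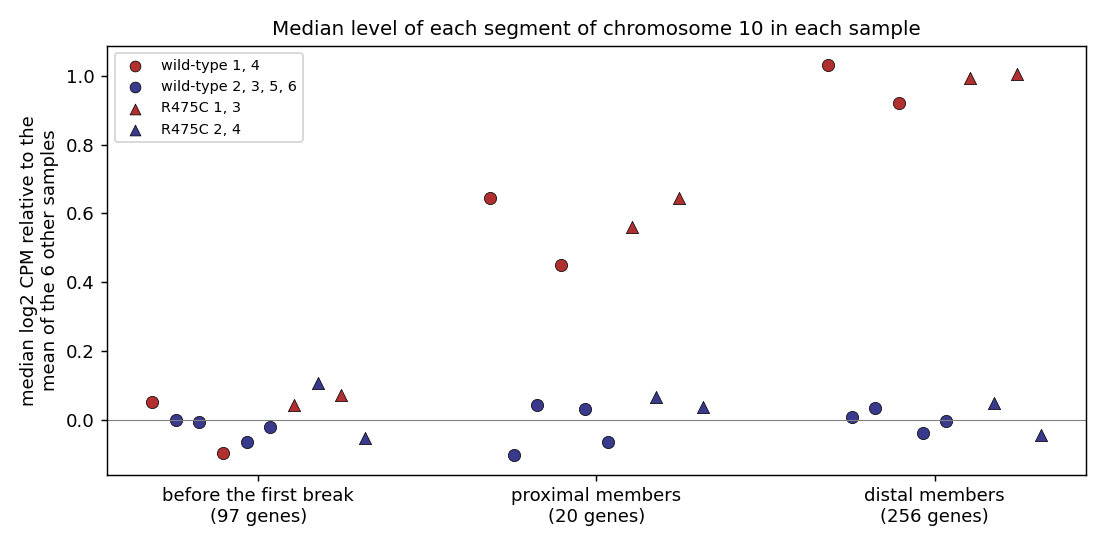
Points are the median log2 CPM of each segment in each of the 10 samples, relative to the mean of the 6 samples outside the high set (vertical axis), for genes before the first break, proximal members and distal members (horizontal axis). The 4 high samples (red) lie apart from the others over both groups of members, at 0.45 to 0.64 and 0.92 to 1.03, and mix with them before the first break, where all 10 lie between -0.10 and 0.11.

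Before the first break the 97 genes had a median difference of 0.01, and 51.5% of them were above 0. Over 20 other chromosomes, without 3, 10 and 21, the medians ranged from -0.04 to 0.03. The same 4 samples were also higher over the 105 genes of chromosome 21 (median 0.60, 1.52-fold) and over the 359 genes of chromosome 3 from 91 Mb on (0.29, 1.22-fold), so the long arm of chromosome 10 had the highest median of the stretches compared. The spread of the distal members about their median, as a scaled median absolute deviation, was 0.26 log2 units. Over the 10211 genes off chromosomes 3, 10 and 21 it was 0.24, about their own median of -0.01.

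Along the distal stretch the level of the step was not quite even. Cut into 6 blocks of 42 or 43 neighbouring members, it had medians of 1.06 (ZWINT to P4HA1), 0.95, 0.94, 0.84 (PI4K2A to WBP1L), 1.06 and 1.06 (TIAL1 to SPRN). The block from PI4K2A to WBP1L was the lowest in each genotype, at 0.88 in wild-type and 0.89 in R475C, and why was not tested. The middle 50% of members lay between 0.78 and 1.15 and the middle 80% between 0.62 and 1.29. Across these 256 genes, which share the same libraries, the difference had a Pearson correlation of -0.02 with log2 mean CPM, 0.02 with log2 transcript length and -0.15 with transcript GC content. It had one of 0.07 with promoter CpG count over the 209 members with a promoter. The wild-type and R475C differences of the same member had a Pearson correlation of 0.48 and a Spearman correlation of 0.62 over the distal members, and 0.70 and 0.63 over the 20 proximal ones. Over the 10991 genes off chromosome 10 the same values were 0.63 and 0.61.

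The genes at the edges of the steps show their size in single samples. HNRNPF, a ribonucleoprotein that binds pre-mRNA and the proximal member of highest level, was at 857 and 744 CPM in wild-type 1 and 4, against 537, 578, 545 and 481 CPM in wild-type 2, 3, 5 and 6, and at 711 and 689 CPM in R475C 1 and 3, against 485 and 436 CPM in R475C 2 and 4. Every high sample was above every other sample, and the differences were 0.58 in wild-type and 0.61 in R475C. CSTF2T, a cleavage stimulation factor that acts in the formation of mRNA ends and the last proximal member, was at 104 and 91.1 CPM in wild-type 1 and 4, against 66.5, 76.9, 77.1 and 62.4 CPM in wild-type 2, 3, 5 and 6, and at 80.7 and 82.7 CPM in R475C 1 and 3, against 68.5 and 51.6 CPM in R475C 2 and 4. It differed by 0.47 in wild-type and 0.46 in R475C, with no overlap in either genotype. ZWINT, a kinetochore protein and the first distal member, was at 281 and 189 CPM in wild-type 1 and 4, against 128, 149.8, 131 and 106 CPM in wild-type 2, 3, 5 and 6, and at 179 and 168 CPM in R475C 1 and 3, against 129.7 and 75.1 CPM in R475C 2 and 4. Its differences, 0.85 in wild-type and 0.81 in R475C, lay between the proximal and the distal median. The next 2 members, IPMK, an inositol polyphosphate kinase, and CISD1, an iron-sulfur protein of the outer mitochondrial membrane, differed by 1.16 (2.24-fold) and 1.41 (2.66-fold). Of the other members next to a break, SGMS1, a sphingomyelin synthase, differed by 0.56 and BEND3P1, a pseudogene, by 0.21. CSGALNACT2, an enzyme of chondroitin sulfate synthesis, differed by 0.75 in wild-type and -0.15 in R475C.

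Each of the 276 members was then compared with the median of its own segment in each genotype. A member was said to follow the step where its difference was 0.5 to 1.5 times that median in both genotypes, to escape where it was under 0.5 times in both, to exceed where it was over 1.5 times in both, and to be mixed otherwise. By this count 225 members (81.5%) followed, 16 (5.80%) escaped, 3 (1.09%) exceeded and 32 (11.6%) were mixed. Of the distal members 213 of 256 (83.2%) followed and 12 escaped, and of the proximal members 12 of 20 followed and 4 escaped. The limits scale with the segment median, so in log2 units they were narrower for the proximal members (median 0.56 beside 0.98). The spread was similar (scaled median absolute deviation 0.22 beside 0.26), so the proximal and distal shares cannot be compared directly. The share of distal members that followed was 74.1% at 5 to 20 CPM, 86.0% at 20 to 50 CPM, 87.8% at 50 to 100 CPM and 91.9% from 100 CPM, so the departures were most frequent where the counts were lowest. When each sample was left out in turn, 164 of the 225 members stayed in the class that follows in all 10 fits, 2 of the 16 in the class that escapes (CEP164P1 and HHEX), and 1 of the 3 in the class that exceeds (TSPAN14). Without wild-type replicate 1, 6 members escaped and 5 exceeded, without R475C replicate 4, 9 escaped, and without R475C replicate 2 or 3, 54 or 51 were mixed.

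**Figure D3:**
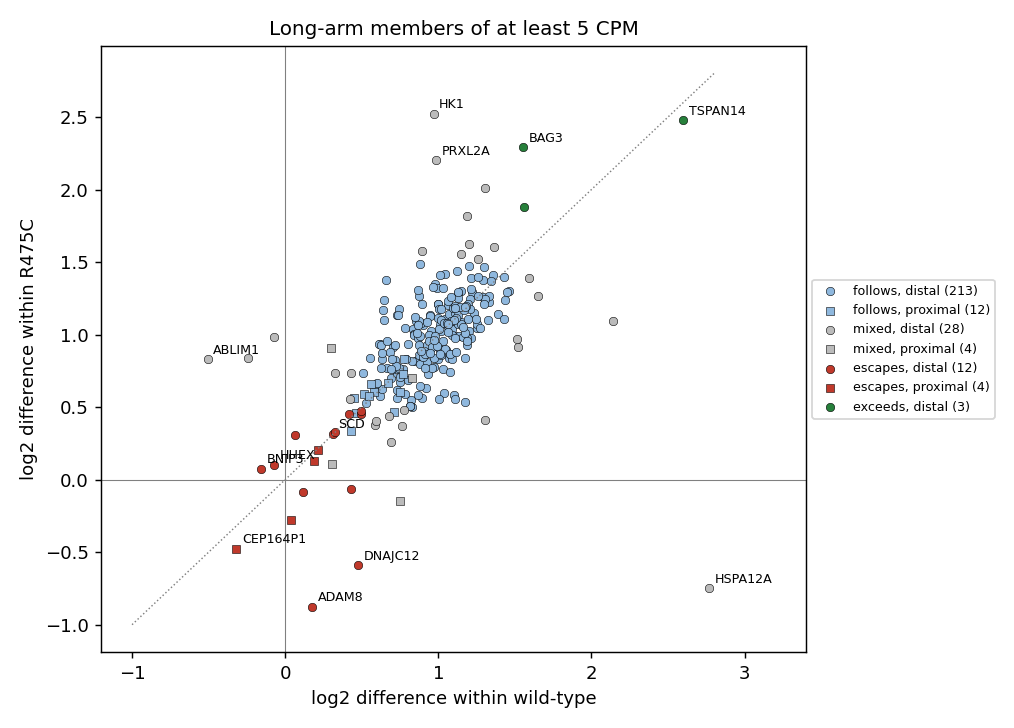
Each of the 276 members of at least 5 CPM is plotted by its log2 difference within wild-type (horizontal axis) and within R475C (vertical axis), with circles for distal and squares for proximal members, colours for the 4 classes and a dotted line of equal differences. Most of the 213 distal members that follow lie around 1 in both genotypes, TSPAN14 lies at 2.6 and 2.48, and SCD at 0.31 and 0.32.

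Of the 25 listed genes of cell division and genome maintenance, 23 followed, beside 225 of all 276 members (81.5%), and 2 were mixed (POLL, a DNA repair polymerase, and CCNJ, a cyclin), with a median of 1.06 (2.08-fold) beside 0.96 over all 276 members and 0.00 over genes off chromosome 10. The list ran from 0.65 (NSMCE4A, a subunit of the SMC5/6 complex) to 1.49 (CCNJ). MKI67, the proliferation antigen Ki-67, was at 993 and 500.3 CPM in wild-type 1 and 4, against 278, 339, 289 and 276 CPM in wild-type 2, 3, 5 and 6, and at 625 and 666 CPM in R475C 1 and 3, against 289 and 249 CPM in R475C 2 and 4. The 4 high samples were the highest within their genotypes, with wild-type 1 far above the other 3. CDK1, the kinase that drives entry into mitosis, was at 314 and 201 CPM in wild-type 1 and 4, against 128, 135, 101 and 100 CPM in wild-type 2, 3, 5 and 6, and at 213 and 228 CPM in R475C 1 and 3, against 135 and 81.3 CPM in R475C 2 and 4. It was 2.14-fold higher in the high samples on average, beside mean log2 differences of 1.08 for KIF11, a motor protein of the mitotic spindle, 0.84 for BUB3, a spindle checkpoint protein, and 0.90 for SMC3, a cohesin subunit.

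Of the 17 genes of phosphatase, phosphoinositide and kinase signalling at 5 CPM or more, out of 20 listed, 16 followed, with a median of 0.95 (1.93-fold), and INPP5F was mixed. PIK3AP1, an adaptor that links the B-cell receptor to phosphoinositide 3-kinase, differed by 0.68 (1.61-fold), and TNKS2, a tankyrase, by 0.95. FGFR2, a growth factor receptor, had 0 counts in all 10 samples, which allows up to 3 counts per library, or 0.331 CPM in the shallowest and 0.0567 CPM in the deepest. MGMT, a DNA repair enzyme, had 1 count over all samples.

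Of the 28 genes on the mitochondrial list 27 followed, with a median of 1.05 (2.07-fold). That list also holds enzymes known from the cytosol, among them PPA1, GOT1 and UROS, so it is not purely mitochondrial. The 3 of highest level were PRDX3, a peroxidase (1.28), GHITM, an inner membrane protein (1.28), and PPA1, the inorganic pyrophosphatase of the cytosol (0.97). TFAM, the packaging and transcription factor of mitochondrial DNA, differed by 1.06. The mixed one was ALDH18A1, which acts in proline synthesis (0.50). RNA processing and ribosome assembly had 14 followers of 15, with a median of 0.96, among them NOLC1, a nucleolar protein (0.96), HNRNPH3 (0.60) and PDCD11, a processing factor of ribosomal RNA (1.04). Vesicle traffic had 20 of 22 (median 0.96), led in level by the ferritin receptor NCOA4 (proximal, 0.55), the COPII coat protein SEC24C (0.99) and ANXA11 (1.09). Protein turnover had 13 of the 14 at 5 CPM or more, out of 15 listed (median 0.97), with the insulin-degrading enzyme IDE at 1.12 and ATAD1, which extracts membrane proteins, at 0.81.

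Of the 17 chromatin and transcription genes at 5 CPM or more, out of 21 listed, 15 followed, with a median of 1.04. BTAF1, which removes the TATA-binding protein from DNA, differed by 0.62, CCAR1 by 0.70 and PCGF5, a Polycomb protein, by 1.06, and the 2 that were mixed were JMJD1C (0.49) and ZMIZ1 (1.62). TET1, an oxidase of methylated cytosine, was below the level at a mean of 4.17 CPM and differed by 1.14, and TCF7L2, a transcription factor of Wnt signalling, lay between 0.0467 and 2.42 CPM. Of 11 genes of cell death and stress 8 followed, with a median of 1.01, among them PDCD4, an inhibitor of translation (1.01), SIRT1, a deacetylase (1.14), and PPIF, the cyclophilin of mitochondria (0.91). The other 3 were BNIP3, which escaped, BAG3, which exceeded, and DDIT4, which was mixed.

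Of the 12 immune genes at 5 CPM or more, out of 21 listed, 7 followed, 3 escaped, 1 exceeded and 1 was mixed, and the median was 0.77 (1.70-fold). SRGN, a proteoglycan of secretory granules, differed by 1.18 and STAMBPL1, a deubiquitinase, by 0.98. WDFY4, a BEACH-domain protein of antigen presentation that is proximal, was at 128 and 161 CPM in wild-type 1 and 4, against 117, 97.9, 124 and 129 CPM in wild-type 2, 3, 5 and 6, and at 102 and 127 CPM in R475C 1 and 3, against 88.6 and 126 CPM in R475C 2 and 4. High and other samples overlapped in both genotypes. ALOX5, which starts leukotriene synthesis, and ADAM8, a membrane protease, escaped. ALOX5 differed by 0.04 in wild-type and -0.28 in R475C. ADAM8 differed by 0.18 in wild-type, where the sets overlapped, and by -0.88 in R475C, where the high samples (16.1 and 12.6 CPM) lay below the others (20.7 and 33.0 CPM). Of the 6 lipid genes at 5 CPM or more, out of 9 listed, 5 followed, with a median of 0.82, among them PSAP, the precursor of the saposins (1.30), and ERLIN1, a protein of the endoplasmic reticulum (0.66). The 3 others were PLCE1 at 4.26 CPM (1.20), PAPSS2 at 0.817 CPM (-0.26) and ELOVL3 at 0.0765 CPM, which was not tested. Over the 10 lists 148 of the 167 genes at 5 CPM or more followed.

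SCD escaped at the highest level of any member, and it kept that class in 9 of the 10 fits with a sample left out. SCD (chr10:100347124-100364834), the desaturase that makes monounsaturated fatty acids, was at 609.5 and 866 CPM in wild-type 1 and 4, against 519, 620.0, 622 and 589 CPM in wild-type 2, 3, 5 and 6, and at 599 and 722 CPM in R475C 1 and 3, against 525 and 531 CPM in R475C 2 and 4. Wild-type 1 and R475C 1 lay within the range of the other 6 samples, and the differences were 0.31 in wild-type and 0.32 in R475C, 0.31 on average (1.24-fold). OLMALINC, the non-coding neighbour of SCD, differed by 0.02. BNIP3, a mitochondrial protein of mitophagy that is known to be induced by hypoxia, was at 15.2 and 26.4 CPM in wild-type 1 and 4, against 20.8, 16.2, 25.8 and 28.9 CPM in wild-type 2, 3, 5 and 6, and at 21.8 and 23.6 CPM in R475C 1 and 3, against 15.7 and 29.5 CPM in R475C 2 and 4. No order by sample set was visible in either genotype, and the differences were -0.16 in wild-type and 0.07 in R475C. P4HA1, a subunit of the collagen prolyl hydroxylase, was at 22.5 and 25.6 CPM in wild-type 1 and 4, against 21.3, 14.7, 26.3 and 33.7 CPM in wild-type 2, 3, 5 and 6, and at 24.9 and 24.9 CPM in R475C 1 and 3, against 16.5 and 24.5 CPM in R475C 2 and 4. Here too the high samples fell within the range of the others in wild-type, and in R475C the single low value was that of R475C 2.

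HHEX, a homeobox transcription factor of blood cells, differed by -0.07 in wild-type and 0.10 in R475C, with 7.74 to 23.9 CPM over the 10 samples. NDST2, which modifies heparan sulfate, and the locus ENSG00000272916, which overlaps it, differed by 0.44 and 0.47, and both were higher without overlap in both genotypes although they count as escaping. CEP164P1, a pseudogene that overlaps ZNF22, was the member of at least 5 CPM that was lower without overlap, at 35.2 to 42.8 CPM in the high samples and 43.2 to 56.9 CPM in the others. The remaining members that escaped were TMEM254 (0.48), PLEKHA1 (0.33), CFAP46 (0.18), TIMM23B (0.16) and DNAJC12 (-0.06), next to BEND3P1 above. TIMM23B has a near copy in TIMM23 (0.80), and WASHC2A (0.75), WASHC2C (0.51) and AGAP6 (0.59) also have near copies on the proximal stretch, so the split of reads among them is uncertain.

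TSPAN14 exceeded the step by the most. TSPAN14 (chr10:80454166-80533123), a tetraspanin that guides the protease ADAM10, was at 53.1 and 57.7 CPM in wild-type 1 and 4, against 9.13, 7.19, 8.42 and 12.4 CPM in wild-type 2, 3, 5 and 6, and at 54.7 and 59.4 CPM in R475C 1 and 3, against 8.43 and 12.4 CPM in R475C 2 and 4. The high samples were 5.81-fold above the others and the ranges were far apart in both genotypes. BAG3, a co-chaperone, differed by 1.55 in wild-type and 2.29 in R475C (3.79-fold), and LRRC27, a leucine-rich repeat protein, by 1.56 in wild-type and 1.88 in R475C (3.30-fold). Both had means under 7 CPM.

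Among the mixed members 4 protein-coding genes were most unlike between the genotypes. HK1, the hexokinase that starts glycolysis, was at 99.8 and 107 CPM in wild-type 1 and 4, against 69.3, 43.5, 43.1 and 60.0 CPM in wild-type 2, 3, 5 and 6, and at 139 and 148 CPM in R475C 1 and 3, against 24.1 and 25.6 CPM in R475C 2 and 4. It was higher in the high samples of both genotypes, and the difference was 0.97 in wild-type and 2.52 in R475C. PRXL2A, a redox protein, had the same order, with 0.98 in wild-type and 2.20 in R475C. ABLIM1, an actin-binding protein, was at 118 and 149 CPM in wild-type 1 and 4, against 180.4, 172, 209 and 194 CPM in wild-type 2, 3, 5 and 6, and at 285 and 360.5 CPM in R475C 1 and 3, against 165 and 197 CPM in R475C 2 and 4. The high samples were the lowest of 6 wild-type samples, whereas R475C 1 and 3 were the highest of all 10 samples. HSPA12A, a distant relative of the HSP70 chaperones, was at 13.1 and 14 CPM in wild-type 1 and 4, against 0.314, 10.8, 13.7 and 0.265 CPM in wild-type 2, 3, 5 and 6, and at 7.18 and 5.95 CPM in R475C 1 and 3, against 11.7 and 10.4 CPM in R475C 2 and 4. Only wild-type 2 and 6 were near 0, and in R475C the high samples were the lower ones.

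The comparison that the study was designed for, R475C against wild-type, was not used to choose the members and was tested with edgeR's quasi-likelihood test over all 17045 genes with Benjamini-Hochberg adjustment. It called 2 of the 420 tested members (0.476%), 1 higher and 1 lower, against 2.46% of all genes tested (1.31% higher and 1.15% lower). Before adjustment, 25 members (5.95%) and 17.3% of all genes had a p under 0.05. Leaving out wild-type replicate 1 gave 5 calls among the members. Leaving out R475C replicate 1, 3 or 4 gave 0, R475C replicate 2 or any of wild-type 3, 5 and 6 gave 1, and DESeq2 called 6. The high samples are 2 of 6 in wild-type and 2 of 4 in R475C. The median log2 fold change of the members was 0.18, beside 0.00 over all genes, and their median standard error was 0.33, beside 0.18.

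PDLIM1 (chr10:95237572-95291024), a PDZ and LIM domain protein of the actin cytoskeleton, was lower in R475C. PDLIM1 was at 151 and 214 CPM in wild-type 1 and 4, against 51.9, 80.3, 84.8 and 79.8 CPM in wild-type 2, 3, 5 and 6, and at 34.7 and 34 CPM in R475C 1 and 3, against 21.5 and 30.9 CPM in R475C 2 and 4. All 4 R475C samples were below all 6 wild-type samples, with a log2 fold change of -1.87 (SE 0.36, edgeR adjusted p = 0.0237). ZFAND4 (chr10:45615501-45672780), a zinc finger protein of the proximal stretch, was higher in R475C. ZFAND4 was at 36.1 and 36.7 CPM in wild-type 1 and 4, against 25.6, 27.7, 27.5 and 27.1 CPM in wild-type 2, 3, 5 and 6, and at 48.8 and 60.3 CPM in R475C 1 and 3, against 40.6 and 45.5 CPM in R475C 2 and 4. Here all 4 R475C samples were above all 6 wild-type samples, with a log2 fold change of 0.70 (SE 0.14, edgeR adjusted p = 0.0282). Neither call remained with the replicate number as a block, where the log2 fold changes were -1.84 (PDLIM1) and 0.63 (ZFAND4). PDLIM1 was also lost without R475C replicate 1, 2, 3 or 4 (log2 fold changes of -1.95, -1.73, -1.93 and -1.89), and ZFAND4 in the 4 high samples alone (0.59) and without wild-type replicate 2, 3, 5 or 6 (0.65, 0.67, 0.67 and 0.67) or R475C replicate 1, 3 or 4 (0.69, 0.58 and 0.72).

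With the set of samples (high or other) as a term beside genotype, the median standard error of the members fell to 0.16, their median log2 fold change was 0.02 and 19 of 420 members (4.52%) passed, 11 higher and 8 lower, against 6.62% of all genes (3.31% higher and 3.3% lower). Since the sets were defined on these data, this is a description of how the genotype result depends on them. The 2 calls above remained, at -1.91 (SE 0.21) for PDLIM1 and 0.63 (SE 0.09) for ZFAND4. Among the others FAM53B, which acts in Wnt signalling, was at 0.997 (SE 0.11), PDCD4 at -0.64 (SE 0.12), SGPL1, the lyase that breaks down sphingosine 1-phosphate, at 0.49 (SE 0.10), KAT6B, a histone acetyltransferase, at 0.38 (SE 0.10) and PRDX3 at -0.36 (SE 0.08), and these 5 were named after their values were seen. None of the 25 cell division genes passed in either fit, beside 0.476% of all tested members with genotype alone and 4.52% with the set. With so few genes, that absence is not read as a trait of the list.

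**Figure D4:**
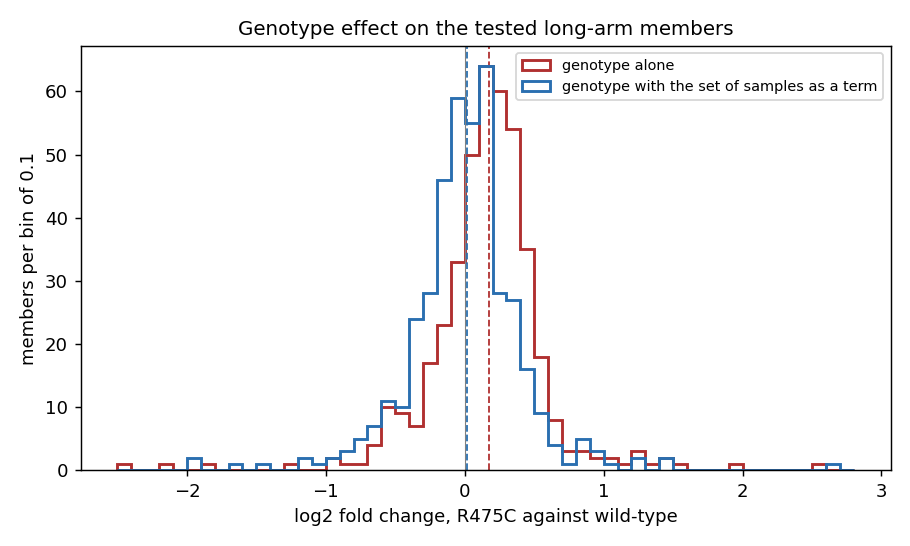
Histograms of the log2 fold change of R475C against wild-type (horizontal axis) over the 420 tested members in bins of 0.1 (members per bin, vertical axis), fitted with genotype alone (red) or with the set of samples as a further term (blue); dashed lines are medians. The median moves from 0.18 to 0.02, and the 1 blue value above the others at the right is OGDHL (2.64).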

How the data were processed

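Poly(A) RNA was sequenced from 10 samples, and the authors deposited their raw counts of reads, as whole numbers that had not been normalized. Adapters were trimmed with cutadapt 1.10, reads aligned with STAR 2.6.0c and counted with featureCounts, tools named per the submitters' processing notes. Neither genome build, gene annotation nor strandedness is given in the sources used here. All 58721 gene IDs equal those of GENCODE release 29 (GRCh38), which gave positions, and 1452 of the 1463 members had a current symbol. Reads of overlapping genes cannot be told apart without a known strand setting: 198 of the 420 tested members and 14 of the 60 genes named by rule overlap another tested gene.

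The sample titles gave genotype and replicate. Chi-square values per gene within groups were 11.2 to 91.7, which left no pair of identical libraries. CPM were computed with edgeR 4.0.16 (R 4.3.3, TMM factors, prior count 1 for log2 CPM). Genotype was tested with glmQLFit and glmQLFTest after filterByExpr (minimum count 10, minimum total 15), two-sided, with a Benjamini-Hochberg adjusted p under 0.05. A standard error is the log2 fold change over the root of F. On simulated counts for this comparison over 17045 genes the test recovered 32%, 60%, 88% and 96% of genes changed 1.5-, 2-, 4- and 8-fold, and 0 of its 138 calls had not been changed. Those counts were drawn without a set of high samples, by which the members differ within both genotypes. The members had a median standard error of 0.33, beside 0.18 over all genes, so the recovered shares need not hold for them. Steps were fitted by least squares in Python 3.11.15 with 1 to 4 segments of at least 10 genes. The floor of 3 counts given for absent genes covers counting error only.

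The members, the 10 functional lists, the sets of samples and the tests were chosen with earlier results of these data known, so they are not independent evidence. Named by rule were the 3 members on either side of each break, 15 genes given whatever their values, the 6 protein-coding genes of highest level that follow, escape or exceed, the members past the genotype test, the 4 most unlike between genotypes and up to 3 per list of highest level. A few of these genes and markers are not reported here. Other genes were added once their values had been seen. The alternatives were other scalings (RLE, library size, TMM without chromosome 10), other filters, levels of 1 and 20 CPM, a prior count of 5, the robust fit, GC trends, DESeq2 1.42.0, the replicate block, narrower ratio limits and leaving out each sample. Added after seeing the data were each set alone, the step without overlapping genes and 3 segments whatever the BIC.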

Additional observations from a re-analysis of the deposited data

Results flagged for a closer look

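In 124 groups of samples (60 named genes in 2 genotypes, and segment medians), 4 had 1 sample far from the rest, where chance alone gives about 1 in 20. MKI67 was at 993 CPM in wild-type 1, the highest of 6, with the next at 500.3 and the lowest at 276 CPM. SCD was at 866 CPM in wild-type 4, with the next at 622.5 CPM and the lowest at 519 CPM. P4HA1 was at 16.5 CPM in R475C 2, the lowest of 4, with the others at 24.5 to 24.9 CPM. MGMT was at 0.0399 CPM in wild-type 4, which is the single count found for it, and at 0 elsewhere in wild-type.

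For 2 members all high samples moved one way in wild-type and the opposite way in R475C. The difference between the genotypes was not tested. DNAJC12, a co-chaperone, was higher in the high samples of wild-type (0.48) and lower in those of R475C (-0.59), a gap of 1.07. ABLIM1 was lower in wild-type (-0.51) and higher in R475C (0.83), a gap of -1.34.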

How the results depend on the processing

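Of the alternatives, 231 left a result the same, 42 moved it, 16 ended a call and none reversed a direction. The median of the distal members stayed between 0.96 and 1.01 when each sample was left out and was 1.04 without overlapping genes. That of the proximal members stayed between 0.49 and 0.59 and was 0.44 as a mean. The second break stayed before ZWINT (56357228) except at a level of 1 CPM (start 67884669), without R475C replicate 4 (58191517) and in R475C alone. In R475C alone BIC took 2 segments, which left no second break unless 3 were set. Taken 1 high sample at a time with 3 segments set, it lay at 58191517 in wild-type 4 and R475C 3. The first break stayed before ZNF37BP (42513510) except with protein-coding genes only, where it lay before the next such gene, ZNF33B (42574185), at 20 CPM (45615501) and in R475C alone (45454585 with 2 segments by BIC, and also with 3). Members higher without overlap numbered 302 to 319 with a sample left out. Apart from rescaling, leaving out a sample can only ease that condition. These counts could thus hardly fall below the 301 of all samples, although they were counted above as leaving a result the same. At 20 CPM the members higher without overlap numbered 176, counted over the fewer members that reach that level, so the lower count is no lower share. The share over all genes of that level is not given here. With a sample left out 199 to 223 members followed, 6 to 20 escaped, 2 to 5 exceeded and 34 to 54 were mixed. At 1 CPM 245 followed, 26 escaped, 8 exceeded and 83 were mixed. At 20 CPM 162 followed, 8 escaped, 1 exceeded and 16 were mixed. In wild-type alone 10 exceeded, and in R475C alone 26 escaped and 13 exceeded. With narrower ratio limits 163 followed, 24 escaped, 9 exceeded and 80 were mixed, beside 225 that followed and 16 that escaped with the main limits. The number that followed thus depends on the limits, although the 163 and the 24 were counted above as leaving a result the same. Without overlapping genes 127 followed. The count of 2 members called between genotypes was 4 with no filter, 6 with DESeq2, 19 with the set as a term, 9 in either set alone, 0 at an adjusted p of 0.01 and 0 to 5 with a sample left out (5 without wild-type replicate 1, 0 without R475C replicate 1, 3 or 4). Same-numbered samples deviated together with correlations of 0.34, 0.16, -0.27 and -0.21, so the numbers do not pair the samples, and with the replicate number as a block 0 members passed, also with GC trends. The causes of these shifts were not tested. R475C replicate 4 is the shallowest library and sets the depth for low members.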

Other observations

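The 144 tested members under 5 CPM, mostly left out above, had a median difference of 0.80 (1.74-fold) with a wider spread (SD 0.92). Of these 144, 49 were higher and 2 lower without overlap in both genotypes. Over all 17045 genes tested, at any level, 9.09% were higher and 8.95% lower. The shares over genes under 5 CPM alone are not given here. The members described here were named after their values were seen. INA, a neuronal intermediate filament protein, was at 1.98 and 3.87 CPM in wild-type 1 and 4, against 0.139, 0, 0 and 0.0294 CPM in wild-type 2, 3, 5 and 6, and at 8.11 and 6.91 CPM in R475C 1 and 3, against 0 and 0 CPM in R475C 2 and 4. The other 6 samples stayed at or under 0.139 CPM. SPOCK2, a proteoglycan of the extracellular matrix, was at 2.39 and 6.43 CPM in wild-type 1 and 4, against 1.39, 0.327, 1.18 and 0.913 CPM in wild-type 2, 3, 5 and 6, and at 6.82 and 11.1 CPM in R475C 1 and 3, against 0.0567 and 0 CPM in R475C 2 and 4. OGDHL, a relative of the oxoglutarate dehydrogenase, was at 2.39 and 3.15 CPM in wild-type 1 and 4 against 0 to 0.751 CPM in wild-type 2, 3, 5 and 6, and at 1.87 to 10.2 CPM in R475C. CTNNA3, an alpha-catenin, went the other way, at 0.664 to 0.839 CPM in the high samples and 0.888 to 2.40 CPM in the others.

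Some members split the samples in other ways. ZMIZ1, a transcriptional coregulator, was at 7.75 and 9.39 CPM in wild-type 3 and 5 and at 44.6 to 122 CPM in the other 8 samples. SHTN1, a protein of axon growth, was at 0.104 and 0.0589 CPM in wild-type 2 and 6 and at 2.31 to 8.55 CPM elsewhere, the same 2 samples in which HSPA12A was near 0. DDIT4, an inhibitor of mTORC1 known to be induced by stress, ran from 12.8 CPM in R475C 2 to 95.3 CPM in wild-type 6 with no order by sample set. These samples are named here by their values alone.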
